A study of Mus musculus with 18 samples.

Results

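The genes described here are 48 genes of mitosis: the kinases, kinetochore and checkpoint proteins, motors and spindle proteins that separate the chromosomes when a cell divides. They were taken by name from a list, with no measured value in the rule, and all 48 were found among the 55487 genes counted and passed the low-count filter that left 20118 genes for testing. The list and the roles were nonetheless set with earlier results of these data known. The study sequenced RNA from mouse forelimb buds in 18 libraries, with 3 libraries in each of 6 groups. Mutant buds carried the Esco2fl/fl alleles together with the Prrx1-CreTg/0 transgene, and control buds carried Esco2fl/fl with no Cre named in the labels. Each genotype was taken at the embryonic stages E9.5 and E10.5 and also at E11.5. The Esco2 protein acetylates cohesin, the ring that keeps sister chromatids paired until anaphase, and the Prrx1 enhancer drives Cre in limb bud mesenchyme, so that ectoderm, blood and vessel cells in the same bud are not its main target. Controls therefore differ from mutants in the transgene as well as in Esco2. Protocols speak of individual limb buds, but no label ties a replicate to its own embryo, so the p-values speak of differences among these libraries, which may be technical.

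Library totals ran from 35034237 to 56230058 counts. The forelimb gene Tbx5 was present in every library, from 97.3 to 125 CPM (counts scaled per library to a common total) among E9.5 controls and from 50.8 to 65.5 CPM among E10.5 mutants, where it was lowest, while the summed hindlimb genes Tbx4 and Pitx1 stayed at or below 16.1 CPM. Esco2 itself, summed over all its exons so that transcripts of a deleted allele cannot be told from intact ones, lay at 25.0 to 28.1 CPM in E9.5 controls against 15.3 to 19.8 CPM in mutants. At E10.5 it lay at 28.1 to 33.6 against 18.9 to 22.3 CPM, and at E11.5 the groups overlapped (20.6 to 30.9 against 22.5 to 23.8 CPM). Its log2 change was -0.60 at E9.5, -0.53 at E10.5 and -0.26 at E11.5, of which only that at E10.5 passed the threshold (adjusted p = 0.162, 0.0200 and 0.238 by edgeR's quasi-likelihood test). Cdkn1a, the cyclin-dependent kinase inhibitor p21, was higher in mutants by log2 2.38, 3.00 and 2.12 at the 3 stages.

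A pair of libraries differed from the rest of their groups. Only 22294 genes of control E9.5 replicate 1 had at least 1 count, against 24125 to 25490 in the other libraries, and its normalisation factor was 0.840. Among all 18 libraries, 14 of the 48 mitotic genes were lowest and 17 were highest in that library. Cdk1 stood at 291 CPM there and at 180 and 193 CPM in the other E9.5 controls, while the proliferation marker Mki67 stood at 254 CPM against 505 and 543 CPM. Mutant E10.5 replicate 3 held 1.96% of its counts in haemoglobin genes, against 0.634% and 0.989% in the other E10.5 mutants, and 8.67 CPM of Xist, which was at most 0.905 CPM elsewhere. Ddx3y, a gene of the Y chromosome, stood at 47.3 CPM in the same library, within the 37.2 to 60.2 CPM of the 18 libraries. Because all comparisons share an estimate of the spread, control E9.5 replicate 1 also enters tests at other stages. Those counts are given with and without it.

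In a dividing cell the kinases Cdk1, Plk1 and the Aurora kinases start mitosis, spindle microtubules attach to kinetochores built on each centromere, and the spindle assembly checkpoint delays anaphase until every chromosome is attached. The anaphase-promoting complex, switched on by Cdc20, then marks securin (Pttg1) and cyclin B for destruction, and separase (Espl1) opens the cohesin rings. Most of these genes are transcribed late in the cell cycle, so their RNA in a bulk sample follows both the share of cycling cells and the RNA in each. In whole buds, fewer cells of a type and less RNA per cell cannot be told apart.

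The genes were well expressed. Per length, as FPKM (CPM per kilobase of exon), the mean over 18 libraries had a median of 24.6 across the 48 genes and of 2.58 across all genes tested, and 36 of 48 lay at or above the 80th percentile. Cdc20, the activator of the anaphase-promoting complex, was highest at 140.8 FPKM and the motor gene Kif18a lowest at 2.60 FPKM, a 54.1-fold range. Among the kinases Plk1 led with 83.6 FPKM and Nek2 was lowest with 18.4 FPKM. In the chromosomal passenger complex the scaffold gene Incenp stood at 53.5 and Cdca8 (borealin) at 32.5 FPKM. Of the checkpoint genes Bub1b stood at 51.4 FPKM and Ttk, the kinase that starts checkpoint signalling, at 12.2 FPKM. Of the kinetochore genes Spc24 was highest (41.5 FPKM) and its partner in the same NDC80 complex, Ndc80, lowest (7.66 FPKM). The median summed exon length was 4911 bases against 3527.5 bases for all genes tested, from 1791 bases (Pbk) to 15433 bases (Cenpf), and the genes lay on 17 chromosomes. Reads were counted by strand, and exons shared with another gene on the same strand made up 1.35% of Top2a and 0% of every other member.

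**Figure D1:**
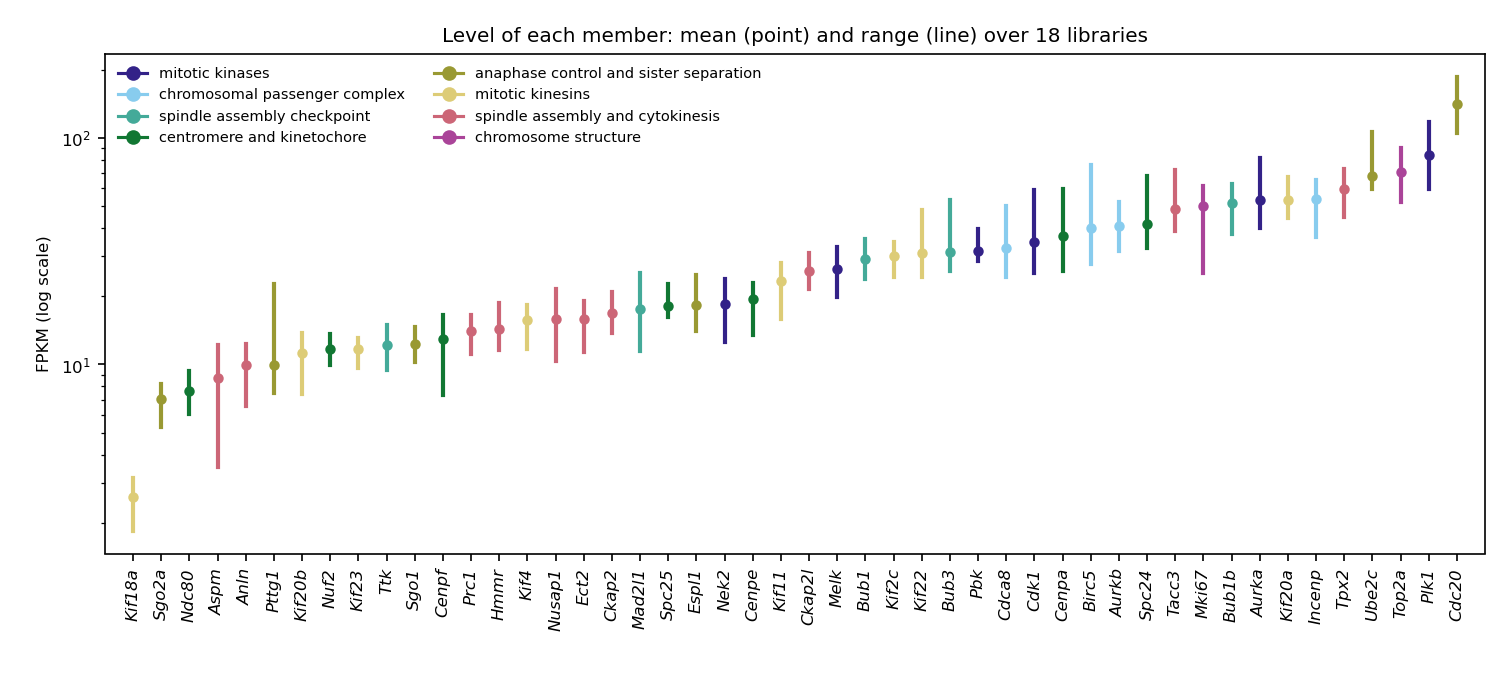
Level of each of the 48 genes in FPKM on a log axis, ordered by mean. Points are means and lines the range over 18 libraries, coloured by role; means run from 2.60 FPKM (Kif18a) to 140.8 FPKM (Cdc20).

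Promoter sequences show what many of these genes share beyond function. Late cell-cycle promoters are known for the CHR element (TTTGAA or TTCGAA), the site of MuvB-containing complexes, and for CCAAT boxes, bound by NF-Y. RefSeq windows of 300 bases (250 before and 50 after the start, build GRCm38.p6) matched 42 of the 48 genes in 46 windows. On either strand, TTTGAA or TTCGAA occurred in 73.9% of these windows and in 19.2% of all 32851 windows, CCAAT in 73.9% and 37.4%, and both together in 65.2% and 7.52%. In 1 of the 46 windows hits of different motifs shared a base. A match is a description of the letters, not of a bound site. Below are the 120 bases before the start, 5′ to 3′ on the gene's strand, with the CHR letters and CCAAT in capitals on either strand (the reverse strand of CCAAT reads ATTGG). Top2a and Kif11 are shown because their RNA fell in mutants at E10.5, Cdk1 and Cdc20 because they carry the same motifs and did not pass the test there, and Nusap1 (lower at both later stages) and Mad2l1 (higher at E11.5) because their windows hold no match. The Mad2l1 window ends at base 66535270, before the gene start at 66535390 in the annotation used for counting. Bases nearer that start were not searched.
Top2a (chr11:99024190-99024309, minus strand): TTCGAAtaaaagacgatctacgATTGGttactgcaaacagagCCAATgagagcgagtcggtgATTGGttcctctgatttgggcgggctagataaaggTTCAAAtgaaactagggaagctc
Kif11 (chr19:37376262-37376381, plus strand): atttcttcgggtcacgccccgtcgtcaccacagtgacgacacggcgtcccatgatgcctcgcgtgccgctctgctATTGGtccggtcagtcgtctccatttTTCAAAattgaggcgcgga
Cdk1 (chr10:69352913-69353032, minus strand): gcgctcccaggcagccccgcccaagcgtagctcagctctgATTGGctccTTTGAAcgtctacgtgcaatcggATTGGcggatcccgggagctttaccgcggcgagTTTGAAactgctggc
Cdc20 (chr4:118437344-118437463, minus strand): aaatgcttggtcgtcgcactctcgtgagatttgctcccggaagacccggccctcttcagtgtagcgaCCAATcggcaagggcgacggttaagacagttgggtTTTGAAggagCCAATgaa
Nusap1 (chr2:119618178-119618297, plus strand): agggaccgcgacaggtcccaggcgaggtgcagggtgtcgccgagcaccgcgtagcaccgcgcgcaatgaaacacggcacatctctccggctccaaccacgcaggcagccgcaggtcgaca
Mad2l1 (chr6:66535101-66535220, plus strand): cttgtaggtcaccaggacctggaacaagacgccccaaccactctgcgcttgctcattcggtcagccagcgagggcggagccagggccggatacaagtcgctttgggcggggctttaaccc

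At E9.5 none of the 48 genes passed the test of mutants against controls. With p-values adjusted over all genes tested (edgeR, quasi-likelihood), 0 of 48 passed the threshold of 0.05, where 0.184% of all genes did, 0.179% higher and 0.00497% lower. DESeq2 and limma-voom also called 0. At an unadjusted p under 0.05 there were 7 of 48, against 9.92% of all genes. The median log2 change was -0.03 over the 48 genes and -0.01 over all genes, and 27 of the 48 values were negative. In 3 genes (Tacc3, Spc25 and Kif2c) every mutant library lay below every control and in 0 above, beside 3.61% and 5.26% of all genes.

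The smallest p-values at E9.5 belonged to Ube2c, Bub3, Nusap1, Cdk1 and Spc24, each with an adjusted p of 0.497. Ube2c, the ubiquitin-conjugating enzyme of the anaphase-promoting complex, measured 277, 160 and 191 CPM in controls and 169, 154 and 158 CPM in mutants. Cdk1, the kinase that drives entry into mitosis, measured 182, 183 and 165 CPM in mutants, beside 180 and 193 CPM in control replicates 2 and 3. Control replicate 1 was the highest of the 6 libraries for both genes. Without that library the log2 change moved from -0.38 to -0.13 for Ube2c and from -0.33 to -0.07 for Cdk1. It also moved from -0.34 to -0.11 for Bub3, a checkpoint protein, and from -0.33 to -0.08 for Spc24. For Nusap1, which binds and bundles spindle microtubules, the change was -0.22 with that library and -0.27 without it. Its levels were 48.3, 50.9 and 57.6 CPM in controls and 48.4, 42.2 and 43.6 CPM in mutants, with the highest mutant library between the controls.

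At E10.5 part of the 48 genes was lower in mutants. The test called 10 genes lower and 0 higher, beside 6.63% of all genes lower and 7.3% higher (13.9% in all). These were Nusap1, Ndc80, Top2a, Kif2c, Kif11, Ckap2l, Ttk, Kif20a, Nuf2 and Aspm; Nuf2 fell by 16.5% and Aspm fell by 40.3%, the ends of the range. At an unadjusted p under 0.05 there were 23 of 48, against 28% of all genes. The median log2 change over the 48 genes was -0.25, against 0.02 over all genes, and 41 of 48 values were negative. In 34 genes every mutant library lay below every control library, and in 3 genes (Ckap2, Birc5 and Cdca8) every mutant library lay above; of all genes 23.1% and 23% did so. The sum over the 48 genes was 7437, 7591 and 7262 CPM in controls and 6219, 5994 and 6359 CPM in mutants, so the groups did not overlap.

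How many of the genes passed at E10.5 depended on a library that is not in the comparison. With control E9.5 replicate 1 left out of the shared fit, 26 genes were called lower and 1 higher, all 10 above among them, where 13.2% and 12.5% of all genes were. DESeq2 called 14 lower and 1 higher. Leaving out any library of the comparison in turn gave 4 to 6 genes, all lower, and 4 genes (Nusap1, Ndc80, Top2a and Kif2c) passed in each of those 6 fits. The count was 4 without any control replicate or without mutant replicate 2 or 3, and 6 without mutant replicate 1. Kif11, Ckap2l, Kif20a and Aspm passed in 0 of those 6 fits, and Ttk and Nuf2 each passed in 1.

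**Figure D2:**
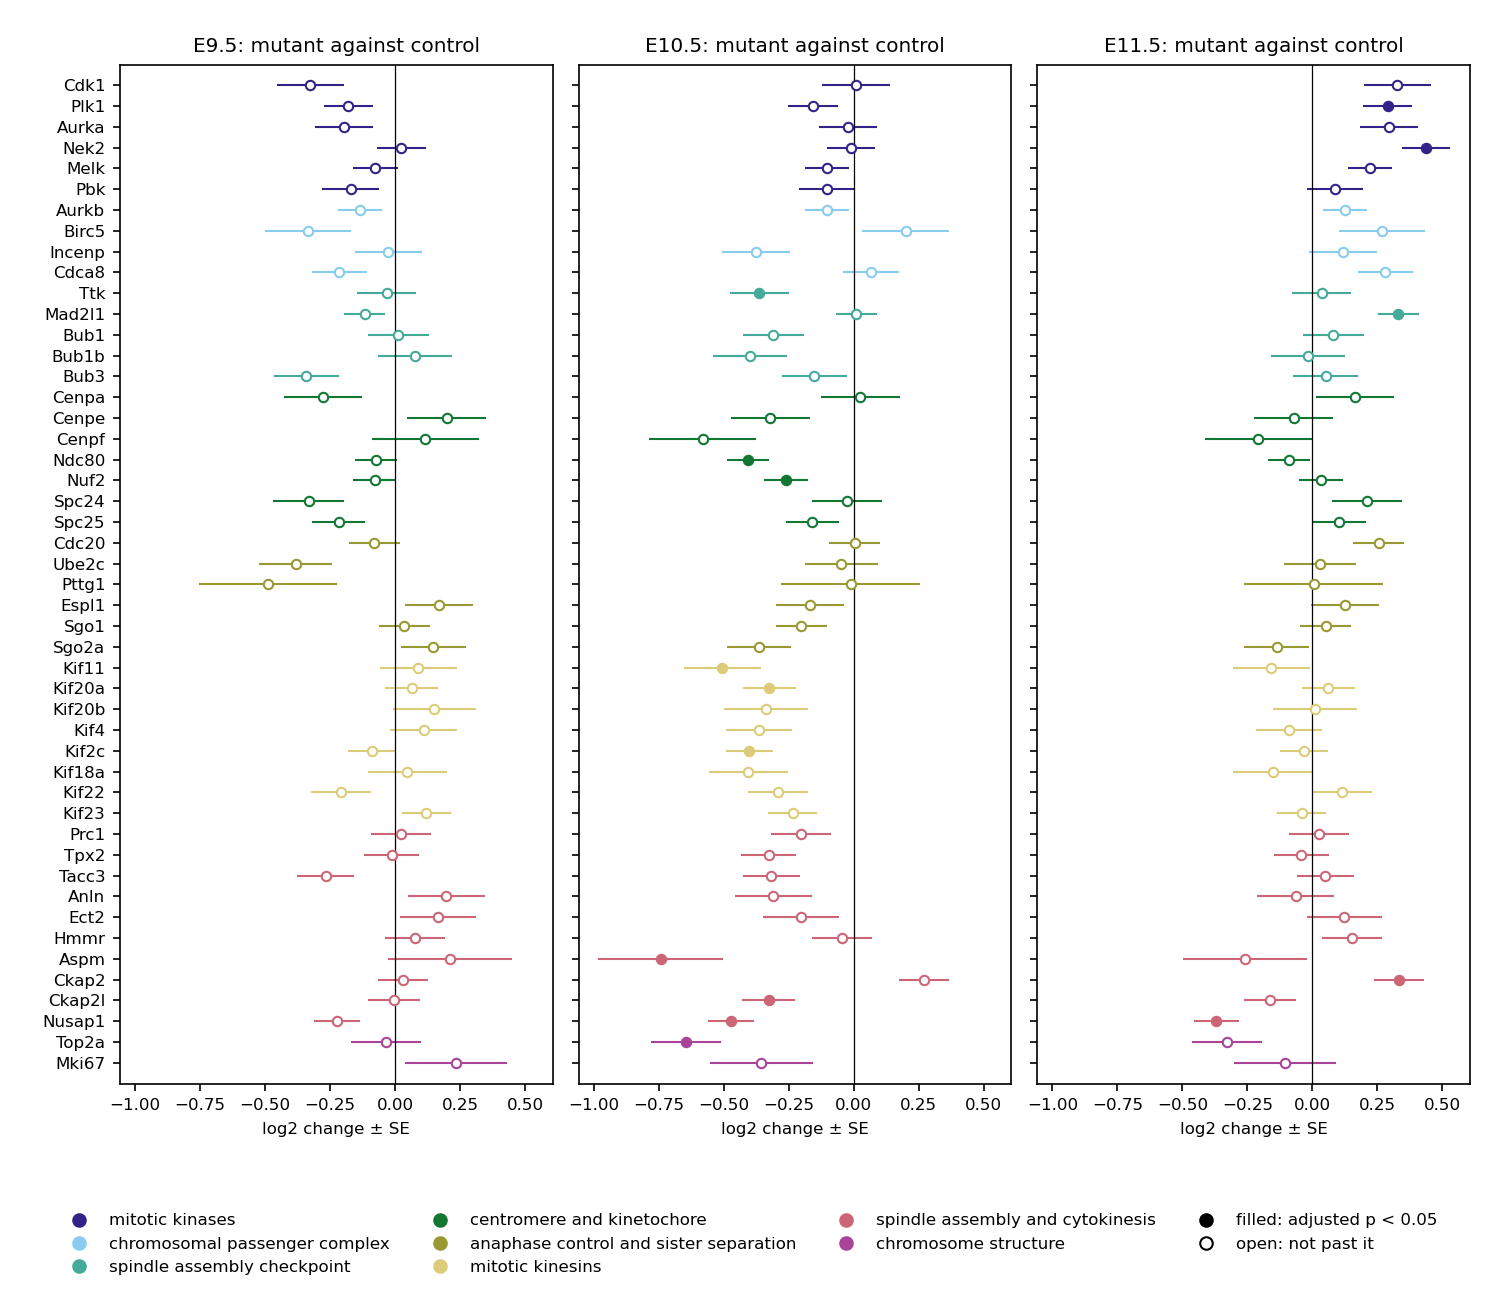
Log2 change of mutants against controls (x axis, bars are ± SE) for each gene, coloured by role, with a panel per stage and filled points where the adjusted p was under 0.05. At E10.5 the kinesins and most kinetochore and spindle genes lie left of 0 and the kinases near it, and at E11.5 the kinases lie right of 0.

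Top2a, DNA topoisomerase II alpha, which untangles sister DNA before anaphase, measured 771, 814 and 707 CPM in E10.5 controls and 480, 472 and 515 CPM in mutants. The mutant libraries lay below all controls, and the log2 change was -0.64 ± 0.13 (SE, n = 3 per group; adjusted p = 0.00413 by edgeR). Mki67, the other gene of chromosome structure, coats mitotic chromosomes and measured 584, 574 and 512 CPM in controls and 398, 414 and 494 CPM in mutants. Its groups did not overlap either, but the log2 change of -0.36 ± 0.20 did not pass (adjusted p = 0.256 by edgeR, and 0.0151 without control E9.5 replicate 1 in the fit, where both genes were called).

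Among the mitotic kinesins all 8 were lower in every mutant library than in any control, with a median log2 change of -0.35, and 3 of 8 passed the test (8 of 8 with control E9.5 replicate 1 left out of the fit). Kif2c, which removes tubulin from microtubule ends at the centromere, measured 143, 149 and 150 CPM in controls and 117, 107 and 111 CPM in mutants (log2 change -0.40 ± 0.09, adjusted p = 0.00776 by edgeR). Kif11, the motor that pushes spindle poles apart, measured 195, 199 and 192 CPM in controls and 134, 140 and 138 CPM in mutants. Its log2 change was -0.51 ± 0.15. Kif20a, a motor of cytokinesis and the highest of the family per length, measured 247, 249 and 236 CPM in controls and 200, 191 and 193 CPM in mutants. Kif18a, the lowest of the family per length, measured 28.8, 30.4 and 25.9 CPM in controls and 23.6, 21.4 and 19.4 CPM in mutants, and its adjusted p was 0.0884 by edgeR.

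In the centromere and kinetochore group 2 of 7 genes were called lower, both subunits of the NDC80 complex that grips microtubules. Ndc80 measured 54.5, 53.2 and 52.6 CPM in controls and 40.1, 39.2 and 41.7 CPM in mutants (log2 change -0.41 ± 0.08, adjusted p = 0.00304 by edgeR). Nuf2 measured 81.6, 82.5 and 77.5 CPM in controls and 72.9, 63.3 and 65.6 CPM in mutants. The other subunits of the same complex gave smaller values: log2 -0.16 (95% interval -0.36 to 0.04) for Spc25 and -0.03 (-0.29 to 0.24) for Spc24. Cenpa, the histone that marks centromeres, gave 0.03 (-0.27 to 0.32). The motor Cenpe and the long gene Cenpf gave -0.32 and -0.58, and neither passed (adjusted p = 0.178 and 0.0722 by edgeR). Both did once control E9.5 replicate 1 was left out of the fit (0.0396 and 0.00237 by edgeR), and 4 of 7 genes of the group were called lower.

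Of the 5 checkpoint genes, Ttk was called, with 67.9, 66.1 and 62.3 CPM in controls and 55.6, 46.5 and 50.5 CPM in mutants (log2 change -0.36 ± 0.11). Bub1b measured 246, 265 and 235 CPM in controls and 189, 183 and 194 CPM in mutants, without overlap, and its adjusted p was 0.0724 by edgeR. Mad2l1 (Mad2, which holds Cdc20 inactive) measured 140, 138 and 125 CPM in controls and 138, 131 and 137 CPM in mutants. The groups overlap, and the 95% interval of its log2 change ran from -0.14 to 0.16. Without control E9.5 replicate 1 in the fit 3 of 5 checkpoint genes were called lower: Ttk, Bub1 and Bub1b (adjusted p = 0.00680 for Bub1 and 0.00150 for Bub1b by edgeR).

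Of the 10 genes of spindle assembly and cytokinesis, 3 were called lower. Nusap1 had the smallest p of the 48 genes: 76.1, 79.9 and 81.0 CPM in controls against 57.1, 53.3 and 60.5 CPM in mutants, a log2 change of -0.47 ± 0.09 (adjusted p = 0.00175 by edgeR). Ckap2l, a spindle protein, measured 93.1, 84.5 and 94.9 CPM in controls and 76.9, 67.7 and 72.6 CPM in mutants. Aspm, a spindle pole protein whose loss causes small brains, measured 129, 141 and 116 CPM in controls and 78.7, 74.8 and 77.0 CPM in mutants, the largest fall of the 48 genes (-0.74 ± 0.24). Tpx2, which activates Aurora A on the spindle, lay just outside the threshold with a log2 change of -0.33 and an adjusted p of 0.0509 by edgeR. Ckap2, a paralogue of Ckap2l that stabilises microtubules, went the other way with 46.0, 47.3 and 47.6 CPM in controls and 58.9, 52.5 and 58.6 CPM in mutants, and did not pass (0.27 ± 0.10, adjusted p = 0.0717 by edgeR). Leaving control E9.5 replicate 1 out of the fit gave 7 genes of the group lower, Tpx2 among them (0.00846 by edgeR), and Ckap2 higher (0.0390).

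Of the mitotic kinases 0 of 6 passed at E10.5, their median log2 change was -0.06, and 0 of 6 were called with control E9.5 replicate 1 left out of the fit. Cdk1 measured 164, 168 and 164 CPM in controls and 172, 166 and 161 CPM in mutants, with a 95% interval of -0.24 to 0.26 for its log2 change. Plk1, which matures the spindle poles, measured 180, 174 and 205 CPM in controls and 171, 172 and 158 CPM in mutants (-0.16, interval -0.34 to 0.03). Nek2, a centrosome kinase, measured 83.0, 82.5 and 82.7 CPM in controls and 84.4, 77.2 and 84.9 CPM in mutants. Of the 6 anaphase genes 0 passed; Cdc20 gave 0.00 (interval -0.19 to 0.20), and Sgo2a, a protector of centromeric cohesin, gave -0.36 (adjusted p = 0.0615 by edgeR). Of the 4 chromosomal passenger genes 0 passed either, with -0.38 for Incenp and 0.07 for Cdca8. With control E9.5 replicate 1 left out of the fit, 1 of the 6 anaphase genes (Sgo2a, adjusted p = 0.00441 by edgeR) and 1 of the 4 passenger genes (Incenp, 0.0179) were called lower.

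**Figure D3:**
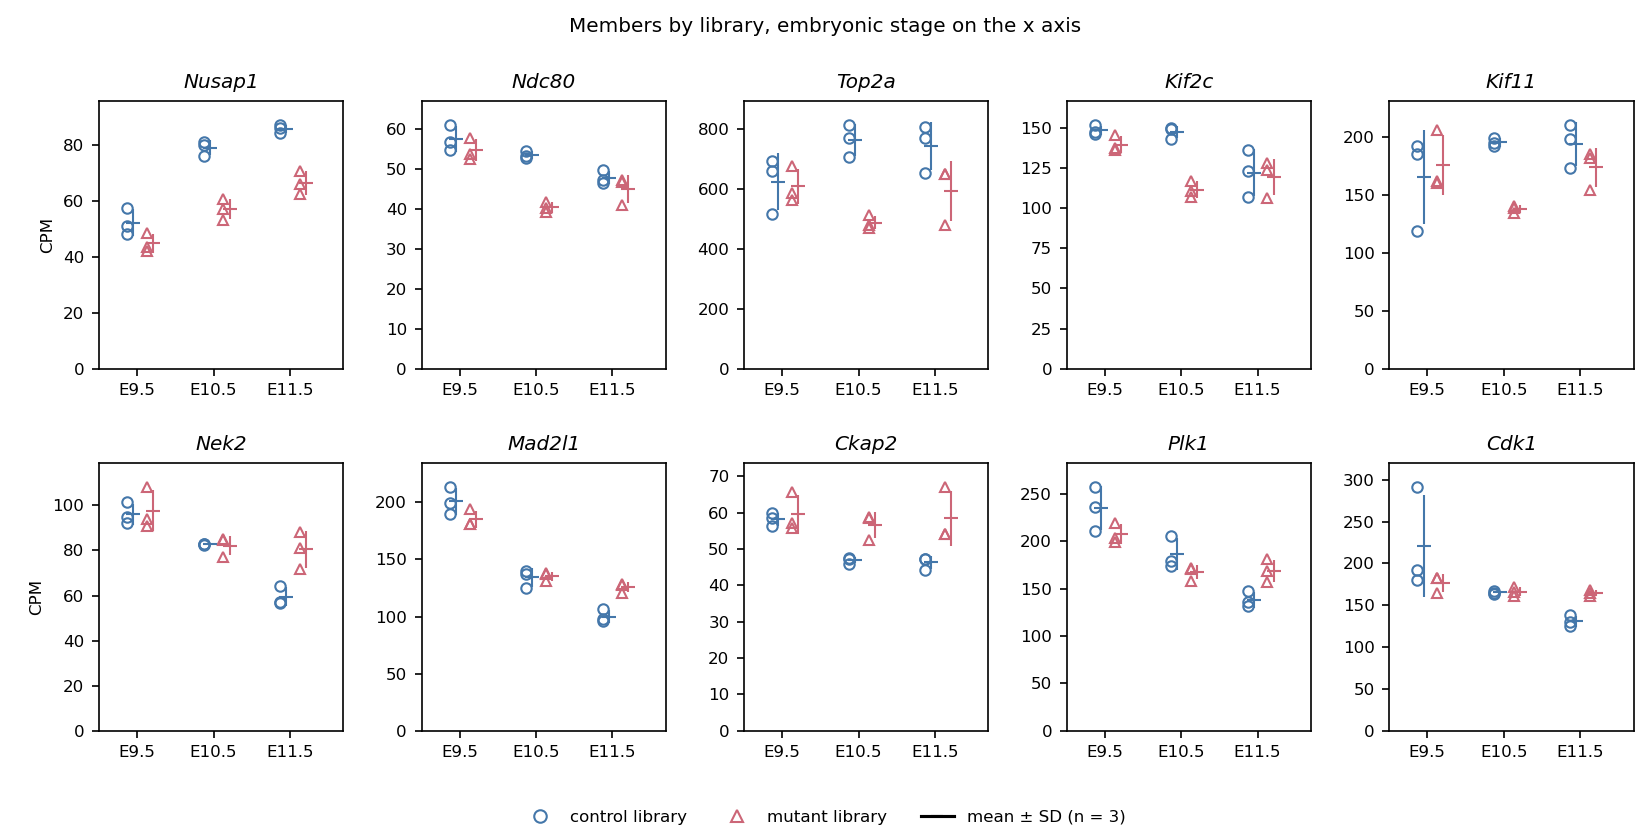
CPM (y axis from 0) of 10 genes in each of the 18 libraries by stage, circles for controls and triangles for mutants, with the mean ± SD (n = 3) beside them. Nusap1, Ndc80, Top2a, Kif2c, Kif11, Plk1 and Ckap2 separate at E10.5, and Kif2c also at E9.5. Nek2, Mad2l1, Plk1, Cdk1, Ckap2, Nusap1 and Top2a separate at E11.5. The controls of Nek2, Mad2l1, Plk1 and Cdk1 are lower at E11.5 than at E10.5.

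Markers of the cell types in the bud differed along with these values at E10.5. The summed limb mesenchyme markers (8 genes, 3 called lower) ran from 1817 to 1845 CPM in controls and from 936 to 1188 CPM in mutants, and Tbx5 from 148 to 166 against 50.8 to 65.5 CPM. The summed surface ectoderm markers (12 genes, 11 called higher) ran from 368 to 529 against 755 to 1097 CPM, the erythroid markers (14 genes, 10 higher) from 3126 to 6335 against 6568 to 20366 CPM, and the macrophage markers (12 genes, 6 higher) from 28.0 to 38.0 against 50.6 to 86.2 CPM. Endothelial markers (12 genes, 5 higher) ran from 446 to 497 against 538 to 627 CPM. Muscle precursor markers (8 genes, 2 higher) ran from 121 to 143 against 175 to 274 CPM, and Schwann cell and neuron markers (10 genes, 2 higher) from 64.1 to 71.1 against 101 to 112 CPM. None of these markers was at 0 in an E10.5 library. Mitochondrial transcripts took 0.531% to 0.758% of counts in controls and 0.987% to 1.08% in mutants. At E9.5 no marker of these lists was called, yet the summed mesenchyme markers already ran from 1961 to 2155 against 1749 to 1907 CPM. The ectoderm markers ran from 350 to 454 against 490 to 565 CPM at that stage, and the groups of the other lists overlapped. The part of these shifts in the mitotic genes' values was not tested.

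Transcript length moved with the changes as well. Across the 48 genes, Spearman's rho between the log2 change and exon length was 0.61 at E9.5, -0.47 at E10.5 and -0.48 at E11.5; across all genes it was 0.36, -0.20 and -0.23. These are descriptions over genes of the same libraries. At E9.5 the libraries were not alike when each gene's deviation from the stage mean was ranked against length. Control replicate 1 gave a rho of -0.66, while control replicates 2 and 3 gave 0.62 and 0.50. Mutant replicates 1, 2 and 3 gave 0.08, 0.62 and 0.61. How far the E9.5 value of 0.61 rests on control replicate 1 was not tested. With each library's length trend removed, rho over the 48 genes became 0.19, -0.13 and -0.20. At E10.5 the median log2 change was then -0.19, with 40 of 48 values negative, and 12 genes were called lower, 9 of them among the 10 above; Nuf2 no longer passed (-0.17, adjusted p = 0.234 by edgeR), and Top2a gave -0.50 and Aspm -0.55.

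**Figure D4:**
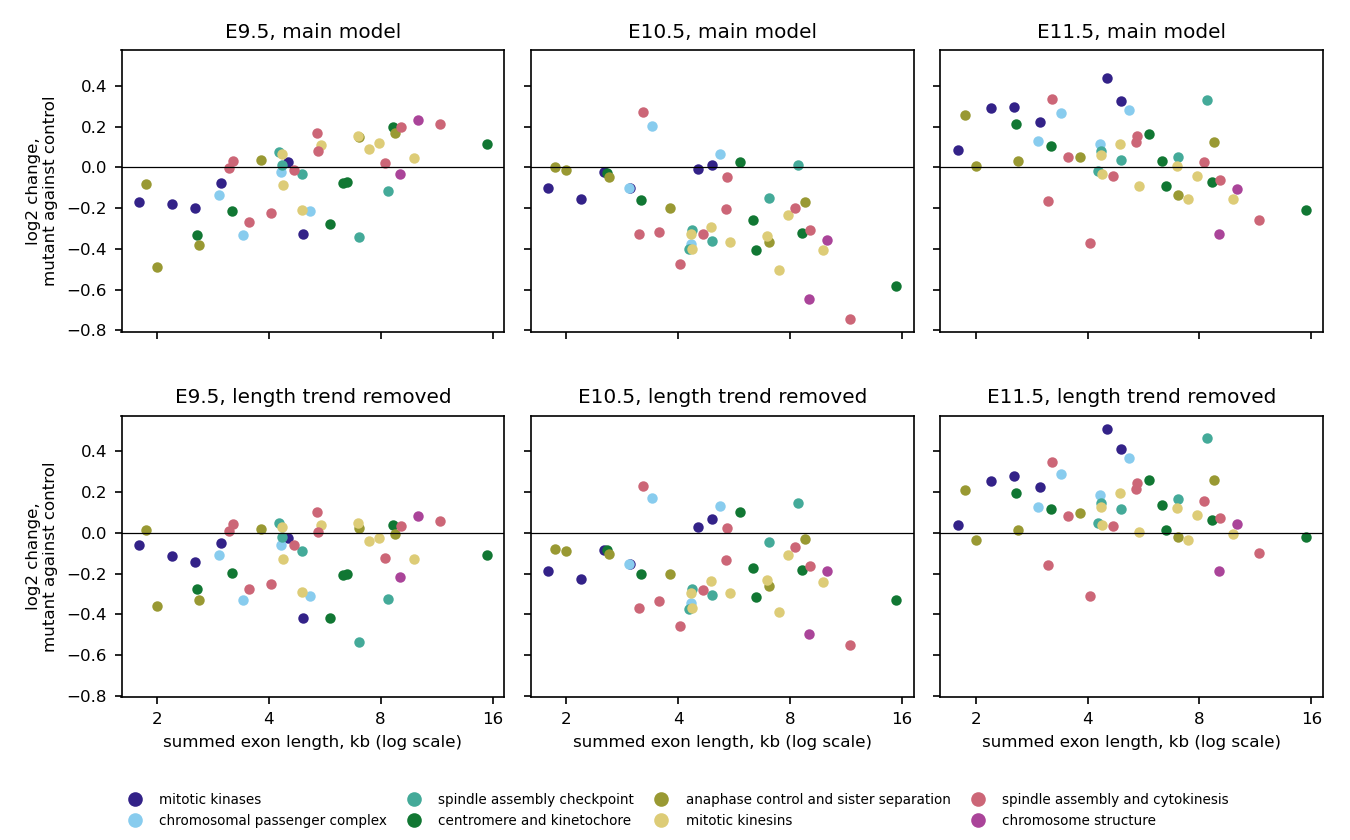
Log2 change of mutants against controls for the 48 genes against summed exon length in kilobases (log axis), at the 3 stages, as fitted (top) and with each library's length trend removed (bottom). The slopes, rising at E9.5 and falling later, are shallower in the bottom row, and most genes stay below 0 at E10.5. The E9.5 panels include control replicate 1, whose own length rho of -0.66 was the only negative value of that stage.

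At E11.5, 4 of 48 genes were called higher in mutants and 1 lower, where 8.02% of all genes were higher and 9.52% lower (17.5% in all). The count called higher lay close to the share of all genes, and the count called lower lay below it. The higher genes were Nek2, Mad2l1, Ckap2 and Plk1, and the lower gene was Nusap1. The median log2 change over the 48 genes was 0.05, close to the 0.01 of all genes, with 31 positive and 17 negative values; with the length trend removed it was 0.12 with 9 negative values, with the authors' log2 FPKM 0.09, and without single libraries 0.02 to 0.09. At this stage 11 of 48 had an unadjusted p under 0.05, against 30.5% of all genes. In 11 genes every mutant library lay above every control, and in Nusap1 and Top2a every one lay below; of all genes 19.8% and 20.7% did so. With control E9.5 replicate 1 left out of the shared fit 11 genes were called higher and 2 lower, beside 13.8% and 15% of all genes, and these included 5 of the 6 kinases. Leaving out a library of the comparison gave 2 to 5 genes: 3 without control replicate 2 or 3 and 2 without mutant replicate 3.

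Nek2 measured 64.2, 57.2 and 56.7 CPM in E11.5 controls and 71.8, 81.2 and 88.4 CPM in mutants, a rise of 35.5% (log2 change 0.44 ± 0.09, adjusted p = 0.00365 by edgeR). Mad2l1 measured 107, 96.0 and 97.4 CPM in controls and 128, 121 and 128 CPM in mutants (0.33 ± 0.08, adjusted p = 0.00748 by edgeR). Both passed in every fit that left out a library of the comparison. Ckap2 measured 44.2, 47.4 and 47.4 CPM in controls and 54.0, 54.2 and 67.0 CPM in mutants, and Plk1 147, 131 and 136 CPM against 157, 181 and 169 CPM. Each of these last genes passed in 2 of those 6 fits.

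Nusap1 was called at both E10.5 and E11.5, 1 of the 10 genes called at the first and 1 of the 5 called at the second. In the fit without control E9.5 replicate 1, Top2a was also called lower at both (adjusted p = 0.000313 and 0.0315 by edgeR) and Ckap2 higher at both (0.0390 and 0.00903). At E11.5 Nusap1 measured 84.3, 86.0 and 87.0 CPM in controls and 66.1, 70.8 and 62.3 CPM in mutants. Its log2 change was -0.37 ± 0.09 (adjusted p = 0.00771 by edgeR, and 0.0526 without mutant replicate 3). Top2a kept to the lower side with 809, 656 and 770 CPM in controls and 479, 651 and 651 CPM in mutants and did not pass (-0.33 ± 0.13, adjusted p = 0.108 by edgeR). Cdk1 measured 138, 130 and 125 CPM in controls and 165, 168 and 161 CPM in mutants, which do not overlap (0.33 ± 0.13, adjusted p = 0.0950 by edgeR). Aurka and Cdc20 gave 0.29 and 0.26, also without overlap and without passing. In the fit without control E9.5 replicate 1, Cdk1, Aurka and Cdc20 passed at E11.5 (adjusted p = 0.000936, 0.00466 and 0.0187 by edgeR). At this stage the ectoderm markers ran from 361 to 604 CPM in controls and 722 to 955 CPM in mutants, and the macrophage markers from 56.6 to 70.2 against 126 to 254 CPM; mesenchyme markers ran from 1821 to 1944 against 961 to 1116 CPM. Muscle precursor markers (8 genes, 3 higher) ran from 188 to 254 against 331 to 471 CPM. The groups overlapped for erythroid markers (3667 to 5145 against 4122 to 9439 CPM) and endothelial markers (423 to 461 against 400 to 490 CPM). They also overlapped for Schwann cell and neuron markers (142 to 185 against 121 to 159 CPM). The part of these markers was not tested here either.

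The change of the mutant effect between stages was tested as an interaction. From E9.5 to E10.5 the effect of 0 of 48 genes changed past the threshold, beside 2.22% of all genes; 16 passed at an unadjusted p under 0.05, as did 22% of all genes; DESeq2 called 2 and limma-voom 0. Top2a had the smallest p, with a change of effect of -0.61 ± 0.19 (adjusted p = 0.0981 by edgeR), followed by Sgo2a, Ndc80 and Kif11 (-0.51, -0.33 and -0.59). Leaving out control E9.5 replicate 1 called 1 gene and leaving out control E9.5 replicate 2 called 3. From E10.5 to E11.5 the effect of 0 of 48 changed past the threshold, beside 0.0746% of all genes, by edgeR, DESeq2 and limma-voom alike. All 48 estimates were nonetheless above 0, with a median of 0.28 against 0.00 for all genes, and 13 passed at an unadjusted p under 0.05, as did 8.47% of all genes. With control E9.5 replicate 1 left out of the fit the count was also 0, beside 0.294% of all genes. Most estimates of the other mitosis and replication genes, given below, were above 0 as well. The 48 estimates come from the same libraries and are not independent. Nek2, Plk1, Mad2l1 and Kif2c led, with changes of effect of 0.45, 0.45, 0.32 and 0.37 and adjusted p-values of 0.282, 0.299, 0.379 and 0.390 by edgeR. A difference between the E10.5 and E11.5 effects was not shown for any single gene.

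In controls, 10 genes fell and 1 rose from E9.5 to E10.5, beside 12.5% and 15% of all genes. The falls were Mad2l1, Melk, Plk1, Cdca8, Bub3, Cdk1, Ckap2, Birc5, Aurka and Aurkb. Mad2l1 went from 213, 190 and 199 CPM to 140, 138 and 125 CPM (-0.58 ± 0.08), and Nusap1 rose from 48.3, 50.9 and 57.6 CPM to 76.1, 79.9 and 81.0 CPM (0.60 ± 0.09). Their adjusted p-values were 5.74e-05 and 0.000133 by edgeR, the smallest of the 48 genes at this step. Without control E9.5 replicate 1, 8 genes passed (7 of them the same); without control E9.5 replicate 2, 17 did, and without E10.5 control replicates 1, 2 and 3, 4, 3 and 5 did.

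From E10.5 to E11.5, 46 of 48 values were below 0 in controls, with a median of -0.24 against -0.0027 for all genes, and Mad2l1, Nek2 and Plk1 passed (3 of 48, beside 2.89% of all genes lower and 6.6% higher). Nek2 went from 83.0, 82.5 and 82.7 CPM to 64.2, 57.2 and 56.7 CPM (-0.48 ± 0.09). With control E9.5 replicate 1 left out of the fit 25 genes were called lower, beside 7.9% of all genes. Without control E11.5 replicate 1 there were 6.

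In mutants, 12 genes fell and 1 rose from E9.5 to E10.5, beside 4.4% and 9.63% of all genes. Mad2l1, Ndc80, Kif20a and Melk had the smallest p-values (-0.45, -0.44, -0.44 and -0.34), and Nusap1 rose by 27.2%, from 48.4, 42.2 and 43.6 CPM to 57.1, 53.3 and 60.5 CPM. With control E9.5 replicate 1 left out of the fit 32 fell and 1 rose, beside 10.8% and 12.6% of all genes, and leaving out a library of the comparison left 2 to 7 genes (5, 2 and 4 without E9.5 mutant replicates 1, 2 and 3, and 7, 4 and 5 without those of E10.5). From E10.5 to E11.5, 0 of 48 changed past the threshold in mutants, beside 2.89% of all genes, and 2 passed at an unadjusted p under 0.05, as did 13.1% of all genes; DESeq2 and limma-voom called 0. Those were Nusap1 (0.22, adjusted p = 0.254 by edgeR) and Kif11 (0.34), and Kif11 passed with control E9.5 replicate 1 left out of the fit, beside 6.15% of all genes. For the genes higher at E11.5 the mutants' own step was -0.03 for Nek2, -0.10 for Mad2l1, 0.02 for Plk1 and 0.04 for Ckap2. The genotype comparison at E11.5 and the last control step share the E11.5 controls, so these values are set side by side and not counted as separate support.

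**Figure D5:**
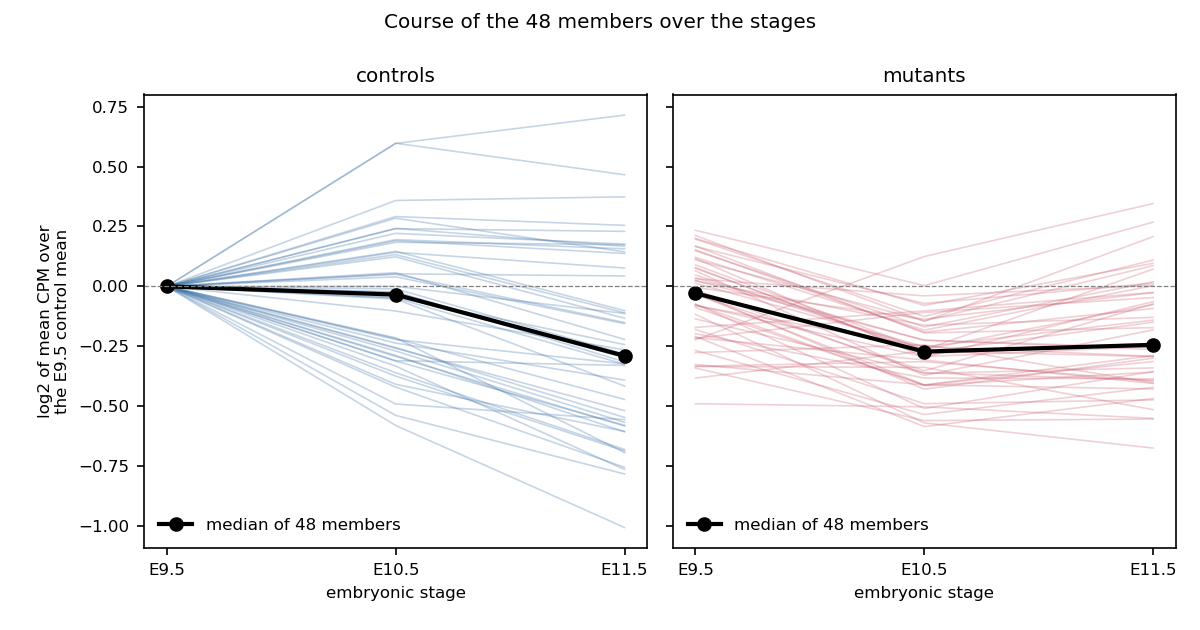
Log2 of each gene's group mean CPM over its E9.5 control mean (thin lines, 48 genes) and their median (black), controls left and mutants right. The control median is -0.03 at E10.5 and -0.29 at E11.5, and the mutant median is -0.27 at E10.5 and -0.24 at E11.5.

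The control step from E9.5 to E10.5 had a median log2 change of -0.03 with 28 of 48 values below 0, and of -0.14 with 34 of 48 below 0 once the length trend was removed; without single libraries the median ran from -0.08 to 0.01. Set against the E9.5 controls, the median of the 48 group means was -0.03 in E9.5 mutants, -0.03 and -0.29 in controls of the later stages and -0.27 and -0.24 in mutants. The median log2 ratio of E10.5 mutant means to E11.5 control means was -0.01, with 26 of 48 below 0, but single genes differed in both directions. Top2a measured 489 ± 22.9 CPM in E10.5 mutants and 745 ± 79.6 CPM in E11.5 controls (SD, n = 3), and Nusap1 57.0 ± 3.61 and 85.7 ± 1.39 CPM. Cdk1 measured 166 ± 5.86 and 131 ± 6.67 CPM, and Birc5, a chromosomal passenger gene, 142 ± 6.14 and 104 ± 8.85 CPM. These are descriptions of group means, with no test.

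Other genes of mitosis and replication, 90 and 30 in number, were listed for comparison, and differences between lists were not tested. At E10.5, 0 of 21 other entry and exit regulators were called lower and 1 higher: Gtse1, a microtubule and p53-binding protein, by log2 0.79. Of 35 other centromere and kinetochore genes 1 was lower (Cenpc1, -0.45). Of 34 other spindle and cytokinesis genes 4 were lower and 1 higher: the spindle pole protein gene Numa1 (-0.79), Cdca2 (-0.33), the condensin subunit gene Ncapd2 (-0.39) and Spag5 (-0.38) against Psrc1 (0.97). Of 30 DNA replication genes Rrm1, a subunit of ribonucleotide reductase, was lower (-0.39). Their median log2 changes were -0.11, -0.07, -0.16 and -0.10, in that order. Of all genes 6.63% were lower and 7.3% higher at that stage. At E11.5, 2, 1, 4 and 5 genes of the same lists were higher and 0 lower, beside 8.02% and 9.52% of all genes. Among them were Gtse1 (0.99), the transcription factor gene Mybl2 (0.32), Trip13 (0.41), which takes Mad2 out of the checkpoint complex, Psrc1 (0.83), Cep55 (0.44), Ran (0.59), Rangap1 (0.39) and the replication genes Rrm2 (0.64), Orc1 (0.51), Mcm10 (0.45), Cdt1 (0.35) and Cdc6 (0.34). At E9.5 edgeR called 0 genes of these lists, and 5, 5, 7 and 6 passed at an unadjusted p under 0.05, as did 9.92% of all genes. Several of these counts, such as 1 of 35 and 1 of 30, lie near or below the share of all genes. From E10.5 to E11.5 the change of effect was positive in 21 of 21, 31 of 35, 29 of 34 and 28 of 30 genes. Its medians were 0.19, 0.18, 0.23 and 0.23 in the same order, beside 0.28 for the 48 genes. The control step from E10.5 to E11.5 was below 0 in 20 of 21, 32 of 35, 27 of 34 and 29 of 30. Medians of that step were -0.13, -0.19, -0.16 and -0.25, beside -0.24 for the 48 genes.

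Of the promoter motifs, called and other genes held these numbers. Of the 10 genes lower at E10.5, 9 had a window, and 7 of these held TTTGAA or TTCGAA and 5 held CCAAT. Of the other 38 genes 33 had a window, and 24 and 25 held them. These counts are a description, and no test was made.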

How the data were processed

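Paired-end reads were aligned to mm10 with STAR after trimming with cutadapt, per the submitters' processing notes, and the authors counted them by gene with featureCounts 1.6.4, stranded, on exons of the GENCODE M22 annotation, per the file headers. The deposited values are raw counts, with no normalisation. The authors also deposited log2 FPKM values for 14692 genes, used only as an alternative; how they were normalised is not stated by these sources. Of the gene identifiers, 99.83% matched a symbol. Counts were filtered with filterByExpr, scaled by TMM and fitted in edgeR 4.0.16 (R 4.3.3) as 6 groups over 18 libraries, with 12 residual degrees of freedom and Benjamini-Hochberg adjustment over 20118 genes at 0.05. CPM are counts over the TMM-scaled library, and FPKM are CPM per exon kilobase, so a value depends on all other genes of its library. Totals of 35034237 to 56230058 counts per library set the depth (common biological coefficient of variation 0.231). Intervals are 95%, from the standard error and a normal quantile. The script was tested on simulated data. The 48 genes, their roles and all other lists were chosen with earlier results of these data known. Named genes are the members past the threshold, or the 5 with the smallest p where fewer than 5 passed, the 4 with the smallest p in each interaction and stage step, the highest and lowest per role by FPKM, and up to 4 per other list. Names outside this rule were chosen after their values were seen. Alternatives were DESeq2 1.42.0, limma-voom (limma 3.58.1), RLE factors, no filter, a replicate block, length offsets, the log2 FPKM values, fewer libraries and leaving out each library. Leaving control E9.5 replicate 1 out of the fit for comparisons it does not enter was chosen after seeing the data.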

Additional observations from a re-analysis of the deposited data

How the results depend on the processing

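In the genotype comparisons no called gene changed direction under any alternative run. The 4 genes with the smallest p in each interaction and stage step kept theirs too. For the other genes called in a stage step, direction was not followed. Counts of called genes moved by more than 1.5 times where named here. At E10.5 the 10 genes called became 5 without the low-count filter, 30 with only the E10.5 libraries in the fit, 24 without control E9.5 replicate 1 and mutant E10.5 replicate 3, 27 with only the former left out of the fit, and 3 with the 4 E10.5 libraries whose description starts with 41 (a number whose meaning the labels do not give); leaving out each library gave 4 to 6. At E11.5 the 5 genes became 3 without the filter, 8 with only that stage and 13 with control E9.5 replicate 1 left out, and 2 to 5 without a library. The interaction from E9.5 to E10.5 gave 2 with DESeq2 and 0 to 3 without a library. Controls from E9.5 to E10.5 gave 3 to 17 without a library. Controls from E10.5 to E11.5 (3) gave 9 with DESeq2, 12 with the length trend removed, 8 with the log2 FPKM values, 19 with only those stages, 25 with control E9.5 replicate 1 left out, and 2 to 6 without a library. Mutants from E9.5 to E10.5 (13) gave 3 without the filter, 25 and 33 without the libraries that stood apart (both, and control E9.5 replicate 1), and 2 to 7 without a library. Mutants from E10.5 to E11.5 (0) gave 2 with only those stages and 1 with control E9.5 replicate 1 left out. The share of all genes called moved with the fit as well. At E10.5 it was 13.2% lower and 12.5% higher with control E9.5 replicate 1 left out, against 6.63% and 7.3% in the main fit. For runs other than the main fit and that one, here and above, the share is not given. Their counts can therefore not be set against all genes. Where fewer samples or more genes tested do not account for a move, the cause was not tested. E9.5 and the interaction from E10.5 to E11.5 stayed at 0 in all fits run. Correlations did not settle whether replicate numbers pair the libraries. Same-numbered controls and mutants had values of -0.26 to 0.32, over 0.1 in 4 of 9 pairs. Of the controls 3 of 9, and of the mutants 6 of 9, correlated best with their own number. With the replicate block, 7 genes were called at E10.5, 4 at E11.5 and 8 in mutants from E9.5 to E10.5. The lowest count of any of the 48 genes in a library was 602 (Pttg1); the part of depth in the counts of calls was not tested.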
